A study of Mus musculus with 6 samples.

Results

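The genes described are 8 that were grouped as feedback inhibitors of NF-κB and mitogen-activated protein kinase (MAPK) signaling, namely Nfkbia, Nfkbiz, Tnfaip3, Zfp36, Dusp1, Dusp2, Socs3 and Btg2. They were chosen by symbol, and all 8 were found among the 31053 genes of both the kidney and the tumor matrix. Each was followed across 6 single-cell RNA-seq libraries made with a droplet chemistry that counts unique molecular identifiers (UMIs) near the 3′ end of transcripts. The kidneys came from 12-week-old male C57BL/6 mice, and the mammary tumors from 10-week-old female MMTV-PyMT mice, in which the mouse mammary tumor virus promoter drives the polyoma middle T oncogene, mainly in mammary epithelium. Minced tissue was either digested with collagenase in a conventional 60 min protocol, called the control, or processed in a microfluidic platform, which joins a digestion device to a combined dissociation and filter device. Platform cells were eluted after 15 min, and what stayed in the device was eluted at 60 min, so the 60 min interval holds only cells not already removed at 15 min. In each of the 2 tissues there was 1 library of each kind. All 6 suspensions were treated with DNase and red blood cell lysis buffer and sorted for viable cells before loading. Per the study's methods, the sequencing was not replicated, and the control and platform conditions of a replicate used tissue from the same animal.

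With 1 library per condition there is no replicate check, no test and no p-value. Levels are given as UMIs per 1000000 UMIs of the cells in question (CPM), and 95% intervals in parentheses are exact intervals (Poisson for a level, Clopper-Pearson for a share, conditional binomial for a ratio) that cover counting error only and not the spread between animals or digestions. A gene was tested against a size rule only, namely at least 50 UMIs over both libraries, and was called past the fold when its CPM differed at least 2-fold. Both platform libraries of a tissue are compared with the same control, so the comparisons are not independent and their values are set side by side.

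Feedback inhibitors are genes that a signaling pathway switches on and whose products then switch that pathway off. Inflammatory cytokines and microbial products activate a kinase complex that destroys IκB proteins, which frees NF-κB dimers to enter the nucleus, and stress and growth factors activate ERK, JNK and p38 MAP kinases through phosphorylation. Both routes induce transcription within minutes, and the mRNAs of many of the induced genes are short-lived, so these genes are widely used as signs of recent stimulation, including the handling that comes with tissue dissociation. Nfkbia encodes IκBα, the inhibitor that holds NF-κB in the cytoplasm, Nfkbiz encodes the nuclear cofactor IκBζ, and Tnfaip3 encodes A20, a ubiquitin-editing enzyme that stops signaling upstream of the IκB kinases. Zfp36 encodes tristetraprolin, which binds AU-rich elements and speeds the decay of cytokine mRNAs. Dusp1 and Dusp2 encode nuclear phosphatases that inactivate MAP kinases, and Dusp2 is best known in activated leukocytes. Socs3 restrains JAK-STAT signaling by cytokines of the interleukin-6 family, and Btg2 encodes an antiproliferative protein that recruits the deadenylase complex to mRNAs.

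The promoters are shown because these genes are read as outputs of the same few signal-responsive factors, and the windows differ in which of their recognition sequences they carry. RefSeq windows on GRCm38.p6, the assembly that mm10 names, were matched by symbol for 7 of the 8 genes (Nfkbiz is named only). The 250 bases before each start site were searched on both strands for the cAMP response element (CRE, TGACGTCA), the AP-1 element (TGANTCA), the NF-κB site (κB) and the serum response element core (CArG), and no matches overlapped each other. Capitals mark the matches, and only the stretch around a match is given where annotated exons overlap the window.
Nfkbia, chr12:55492648-55492897, minus strand, the 250 bases before the start: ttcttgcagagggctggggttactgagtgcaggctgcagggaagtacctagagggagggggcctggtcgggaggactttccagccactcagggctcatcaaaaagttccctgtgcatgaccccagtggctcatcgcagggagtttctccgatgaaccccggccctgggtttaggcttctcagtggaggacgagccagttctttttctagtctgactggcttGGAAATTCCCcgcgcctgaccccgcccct
Btg2, chr1:134079156-134079405, minus strand, the 250 bases before the start: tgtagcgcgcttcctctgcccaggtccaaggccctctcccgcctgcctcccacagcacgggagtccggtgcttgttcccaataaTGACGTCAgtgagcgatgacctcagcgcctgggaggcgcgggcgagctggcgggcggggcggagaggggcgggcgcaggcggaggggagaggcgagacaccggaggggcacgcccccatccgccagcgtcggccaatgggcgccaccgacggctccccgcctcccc
Tnfaip3 upstream stretch, chr10:19015521-19015550, minus strand, bases 140 to 111 before the start: caggTGACTCAcgcgGGGACACCCCggggc
Tnfaip3 proximal stretch, chr10:19015411-19015440, minus strand, bases 30 to 1 before the start: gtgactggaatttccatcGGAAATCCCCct
Zfp36, chr7:28379267-28379296, minus strand, bases 68 to 39 before the start: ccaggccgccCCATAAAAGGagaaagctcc
Dusp1, chr17:26508597-26508626, minus strand, bases 154 to 125 before the start: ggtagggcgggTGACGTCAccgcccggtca
Nfkbia held a κB match 29 to 20 bases before its start and Tnfaip3 held 2 κB matches with an AP-1 match, whereas the Dusp1 and Btg2 windows held a CRE and the Zfp36 window a CArG match. Over all 32851 promoter windows of this length, 1.55% held a CRE, 6.75% an AP-1 element, 7.25% a κB site and 1.47% a CArG core. Dusp2, Socs3 and the other Tnfaip3 start held none of these letters in the window. A match is a description of sequence, and binding was not measured. In the mm10 annotation Nfkbia lies at chr12:55489410-55492647, Nfkbiz at chr16:55811375-55838899, Tnfaip3 at chr10:19000910-19015657, Socs3 at chr11:117966079-117970047 and Btg2 at chr1:134075170-134079120, all on the minus strand, and Dusp2 at chr2:127336159-127338376 on the plus strand. The Dusp1 record (chr17:26505590-26562128) overlaps 2 other records on its strand and Ergic1 on the opposite strand. Zfp36 (chr7:28376784-28380253) overlaps a predicted gene on the opposite strand. How reads at these overlaps were assigned in the counting was not examined.

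After filtering on detected genes and mitochondrial share, 5886, 8390 and 9936 kidney cells (control, 15 min and 60 min) and 5736, 5802 and 6024 tumor cells were kept, with 33644880 to 61434200 UMIs per library. The kidney 15 min library stood apart. Its median cell drew 20.4% of UMIs from mitochondrial genes against 7.38% and 8.59% in the other kidney libraries, and 85.9% of its cells were proximal tubule-like against 52.4% in the control. Within a tissue, 309 kidney and 57 tumor barcodes occurred in more than 1 library. Cell classes were gated with marker lists that hold none of the 8 genes and are called "-like", since no annotation by the authors was used. Levels of a class were compared where it had at least 50 cells in both libraries.

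In the kidney libraries taken whole, each of the 8 genes was lower at 15 min than in the control and higher at 60 min than in the control. Nfkbia stood at 425, 42 and 754 CPM in the control, 15 min and 60 min libraries, Nfkbiz at 121, 8.09 and 257 CPM and Tnfaip3 at 49.8, 2.62 and 126 CPM. All 3 of these genes were therefore lowest in the 15 min library by a wide margin. The mRNA decay factor Zfp36 stood at 307, 41.4 and 632 CPM, and the phosphatase genes Dusp1 and Dusp2 stood at 355, 75.3 and 799 CPM and at 130.1, 16.7 and 151 CPM. Socs3 stood at 129, 6.28 and 139 CPM and Btg2 at 437, 65.9 and 816 CPM. At 15 min all 8 were called lower, with ratios to the control from 0.0489 (0.0439 to 0.0543) for Socs3 to 0.212 (0.205 to 0.22) for Dusp1, where 25.5% of all genes tested were called lower. Their median log2 ratio was -3.15, while the median of all genes was itself -0.37 in this contrast. At 60 min, 4 were called higher than the control (Nfkbiz at 2.13 times, Tnfaip3 at 2.53, Zfp36 at 2.06 and Dusp1 at 2.25) against 8.78% of all genes, with a median log2 ratio of 0.97 against 0.23. The count was 2 with cells above the upper limits let in, 2 after thinning each cell to 1000 UMIs and 1 with libraries scaled by the median ratio of all genes. Socs3 at 1.08 (1.04 to 1.12) times and Dusp2 at 1.16 (1.12 to 1.21) times were the closest to the control. Between the 2 platform intervals all 8 were called higher at 60 min, where 40.4% of all genes were, with a median of 4.05 against 0.67. When cells above the gene and mitochondrial limits were let in, the 15 min ratios stayed called but lay closer to the control, at 0.150 for Nfkbia, 0.162 for Nfkbiz, 0.229 for Zfp36 and 0.486 for Dusp1. In such whole-library sums, fewer cells of a type that carries a transcript and less of the transcript per cell cannot be told apart.

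**Figure D1:**
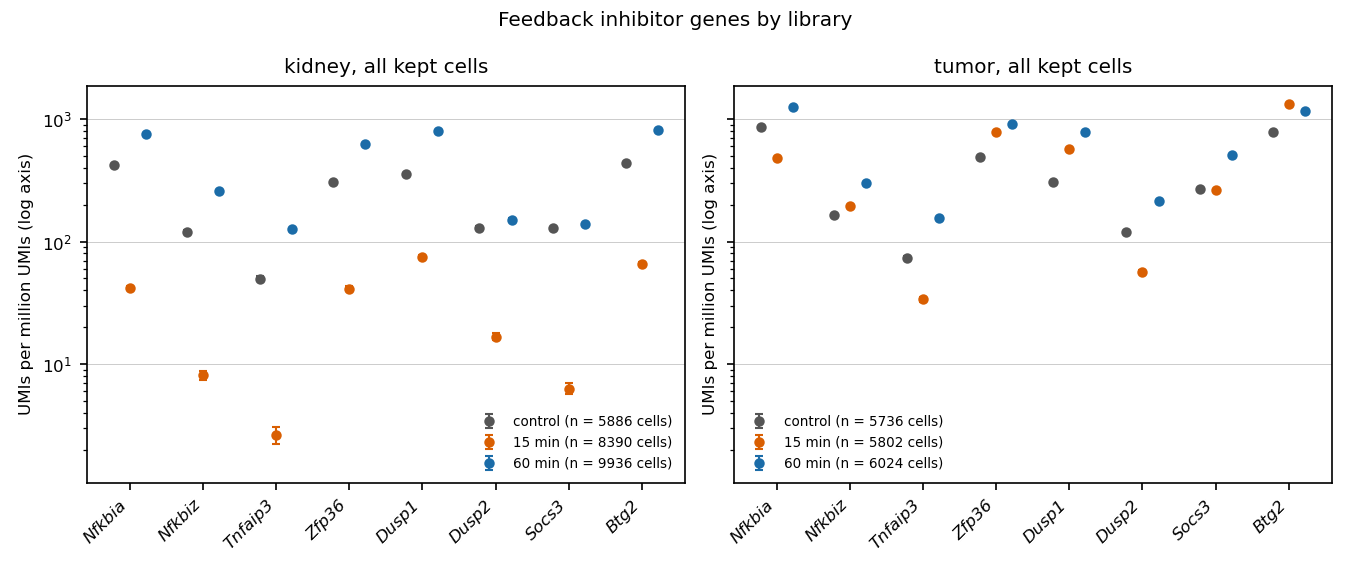
Level of each of the 8 genes in all kept cells of each library, in CPM on a log axis, for kidney (left) and tumor (right). Points are single libraries, and vertical lines are exact Poisson intervals of counting error. In kidney every gene is lowest in the 15 min library, from 2.62 CPM for Tnfaip3 to 75.3 CPM for Dusp1, while in tumor Zfp36, Dusp1 and Btg2 are lowest in the control.

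Holding the mix of classes at that of the control left a much smaller and uneven difference in the kidney at 15 min. With each class of the 15 min library weighted by its share of control UMIs, Zfp36 was at 1.01 times, Btg2 at 1.08 times and Dusp1 at 1.18 times the control, close to equal. These values average classes that went opposite ways. Zfp36 went from 1019 to 1384 CPM in macrophage-like cells, but from 752 to 277 in endothelial-like and from 23.7 to 7.98 in proximal tubule-like cells. Within classes, Zfp36 was called lower in 3 of 6, Btg2 in 2 of 6 and Dusp1 in 1 of 6, with 0 called higher. Tnfaip3 remained at 0.241 times, Socs3 at 0.369, Dusp2 at 0.408, Nfkbia at 0.426 and Nfkbiz at 0.643. Nfkbia, Nfkbiz and Tnfaip3, together with Dusp2 and Socs3, were thus below the control on average at a matched mix. The averages of Zfp36, Dusp1 and Btg2 were not, although each of these genes was called lower in some classes. At 60 min the same weighting gave 2.09 times for Tnfaip3, 1.83 for Nfkbiz, 1.79 for Dusp1, 1.64 for Zfp36, 1.37 for Btg2 and 1.35 for Nfkbia. Dusp2 at 0.869 and Socs3 at 0.675 times were then below the control, on the other side of equality from their whole-library ratios. The weights are shares of control UMIs, and the 15 min levels of some classes rest on few cells. For this weighting classes with at least 10 cells in both libraries entered, and cells that fell between or outside the classes entered as groups of their own. The interval of a weighted value was not computed.

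In the tumor libraries taken whole, the 15 min interval split the same genes. Nfkbia stood at 859, 484 and 1253 CPM in the control, 15 min and 60 min libraries, Tnfaip3 at 74, 33.7 and 155 CPM and Dusp2 at 119.9, 56.5 and 213 CPM, with the 15 min library lowest for each. In contrast, Zfp36 at 488, 783 and 909 CPM, Dusp1 at 304, 576 and 784 CPM and Btg2 at 789, 1321 and 1156 CPM were lowest in the control. Nfkbiz at 164, 196 and 300.0 CPM and Socs3 at 271, 262 and 507 CPM were highest at 60 min and differed little between the control and 15 min. At 15 min, Tnfaip3 at 0.456 (0.431 to 0.482) and Dusp2 at 0.471 (0.451 to 0.492) times the control were called lower, against 3.17% of all genes, and none of the 8 was called higher, against 2.45%. After thinning, 0 were called lower. The median log2 ratio of the 8 was 0.10 against 0.22 over all genes. At 60 min, Tnfaip3 at 2.09 and Dusp1 at 2.58 times were called higher, against 8.02% of all genes, a count of 1 after thinning, and the other 6 were between 1.46 and 1.87 times the control. From 15 to 60 min, Nfkbia was called higher at 2.59 times, Tnfaip3 at 4.58 and Dusp2 at 3.77, against 8.47% of all genes. At the control's class mix the 15 min ratios still ranged from 0.609 for Tnfaip3, 0.643 for Dusp2 and 0.667 for Nfkbia to 1.72 for Zfp36, 1.77 for Btg2 and 2.26 for Dusp1. The weighting does not hold shifts of cell types within a class, and their part in this split was not tested.

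**Figure D2:**
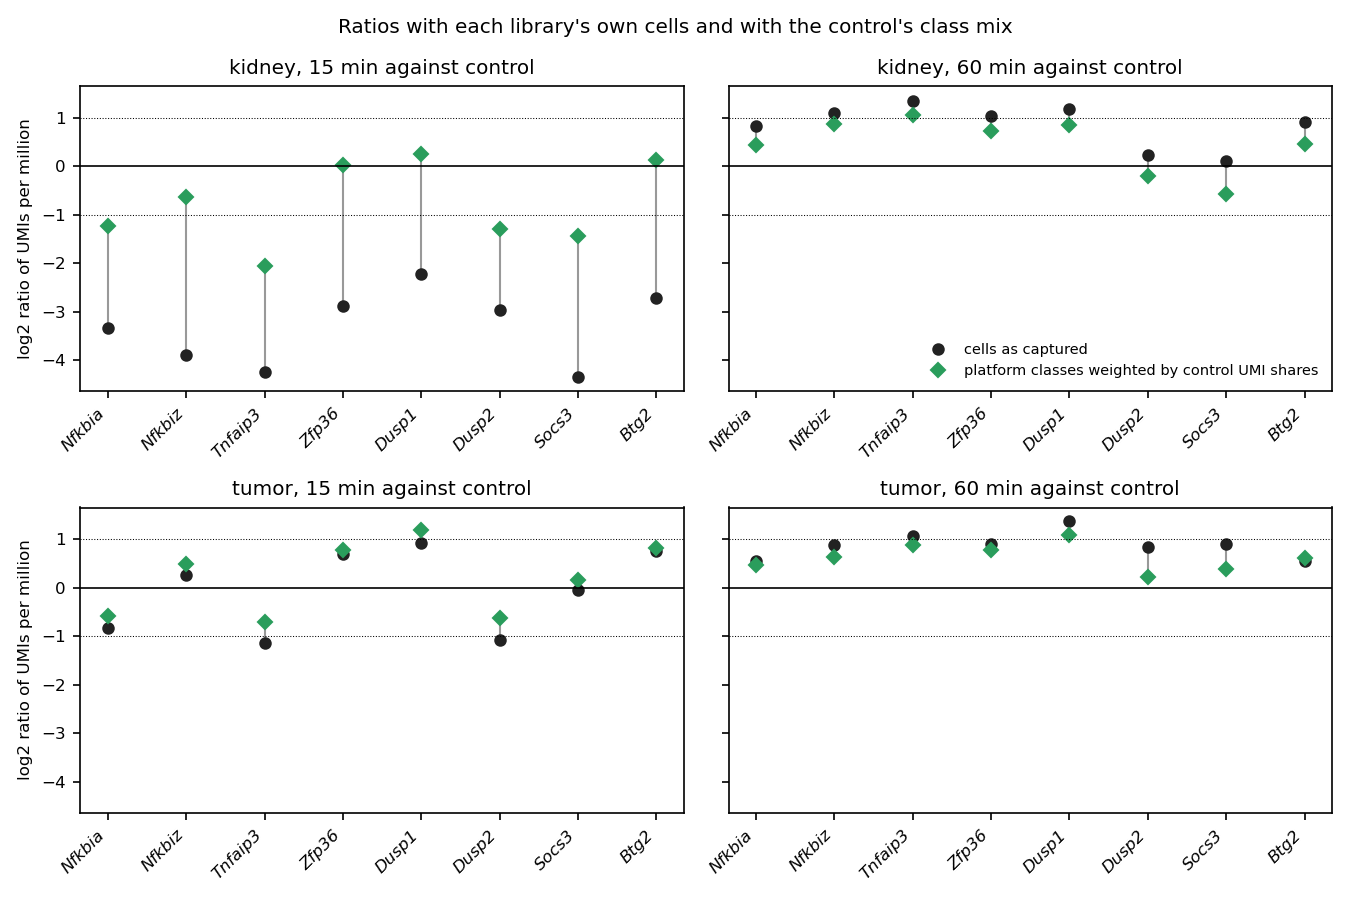
Ratio of each platform library to the control of its tissue on a log axis, for each of the 8 genes, over the whole library and with the classes weighted by their share of control UMIs. In kidney at 15 min the whole-library ratios lie between 0.0489 and 0.212 and the weighted ratios between 0.241 and 1.18, and in tumor at 15 min the weighted ratios run from 0.609 for Tnfaip3 to 2.26 for Dusp1.

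The genes did not mark the same classes. In the kidney control, Nfkbia was highest in dendritic-like cells at 1701 (1609 to 1798) CPM and next in macrophage-like cells at 1197 (1167 to 1226) CPM, and was at 37.1 (34.4 to 39.9) CPM in proximal tubule-like cells. Nfkbiz, at 513 CPM, Zfp36, at 1019 CPM, and Dusp1, at 1094 CPM, were highest in macrophage-like cells, although for Dusp1 the endothelial-like level of 1060.0 (1018 to 1103) CPM had an interval that overlapped the macrophage-like 1094 (1066 to 1122). Tnfaip3 was highest in T lymphocyte-like cells at 249 (218 to 283) CPM and Dusp2 in B lymphocyte-like cells at 579 (534 to 626) CPM. Socs3 at 756 (721 to 793) CPM and Btg2 at 1295 (1249 to 1343) CPM were highest in endothelial-like cells. In the tumor control, granulocyte-like cells had the highest level of 7 of the 8 genes, for example 6576 (6363 to 6794) CPM of Nfkbia and 483 (426 to 545) CPM of Tnfaip3. For Socs3 the granulocyte-like level of 578 (516 to 645) CPM overlapped the macrophage-like 568 (554 to 583). The remaining gene, Zfp36, was highest in macrophage-like cells at 641 (625 to 656) CPM. These are orders of levels within 1 gene, and a level in 1 class of 1 library has no replicate.

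Across classes, the calls at 15 min were all lower than the control in the kidney and of both directions in the tumor. Of 40 tested gene and class combinations over 6 kidney classes at 15 min, 21 were called lower and 0 higher than the control, where 3.09% and 1.29% of all gene and class combinations were. Of 40 over 5 tumor classes, 5 were called lower and 12 higher, where 3.41% and 3.83% were. At 60 min the kidney classes had 10 higher and 2 lower of 65 combinations over 10 classes (background 2.73% and 0.698%), and the tumor classes 15 higher and 0 lower of 40 over 5 classes (background 2.42% and 1.92%). From 15 to 60 min, 27 of 46 kidney combinations and 16 of 47 tumor combinations were called higher and 0 lower in either tissue (background higher 6.16% and 3.31%, lower 1.66% and 3.07%). Combinations of 1 class share their cells and are not independent of each other.

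**Figure D3:**
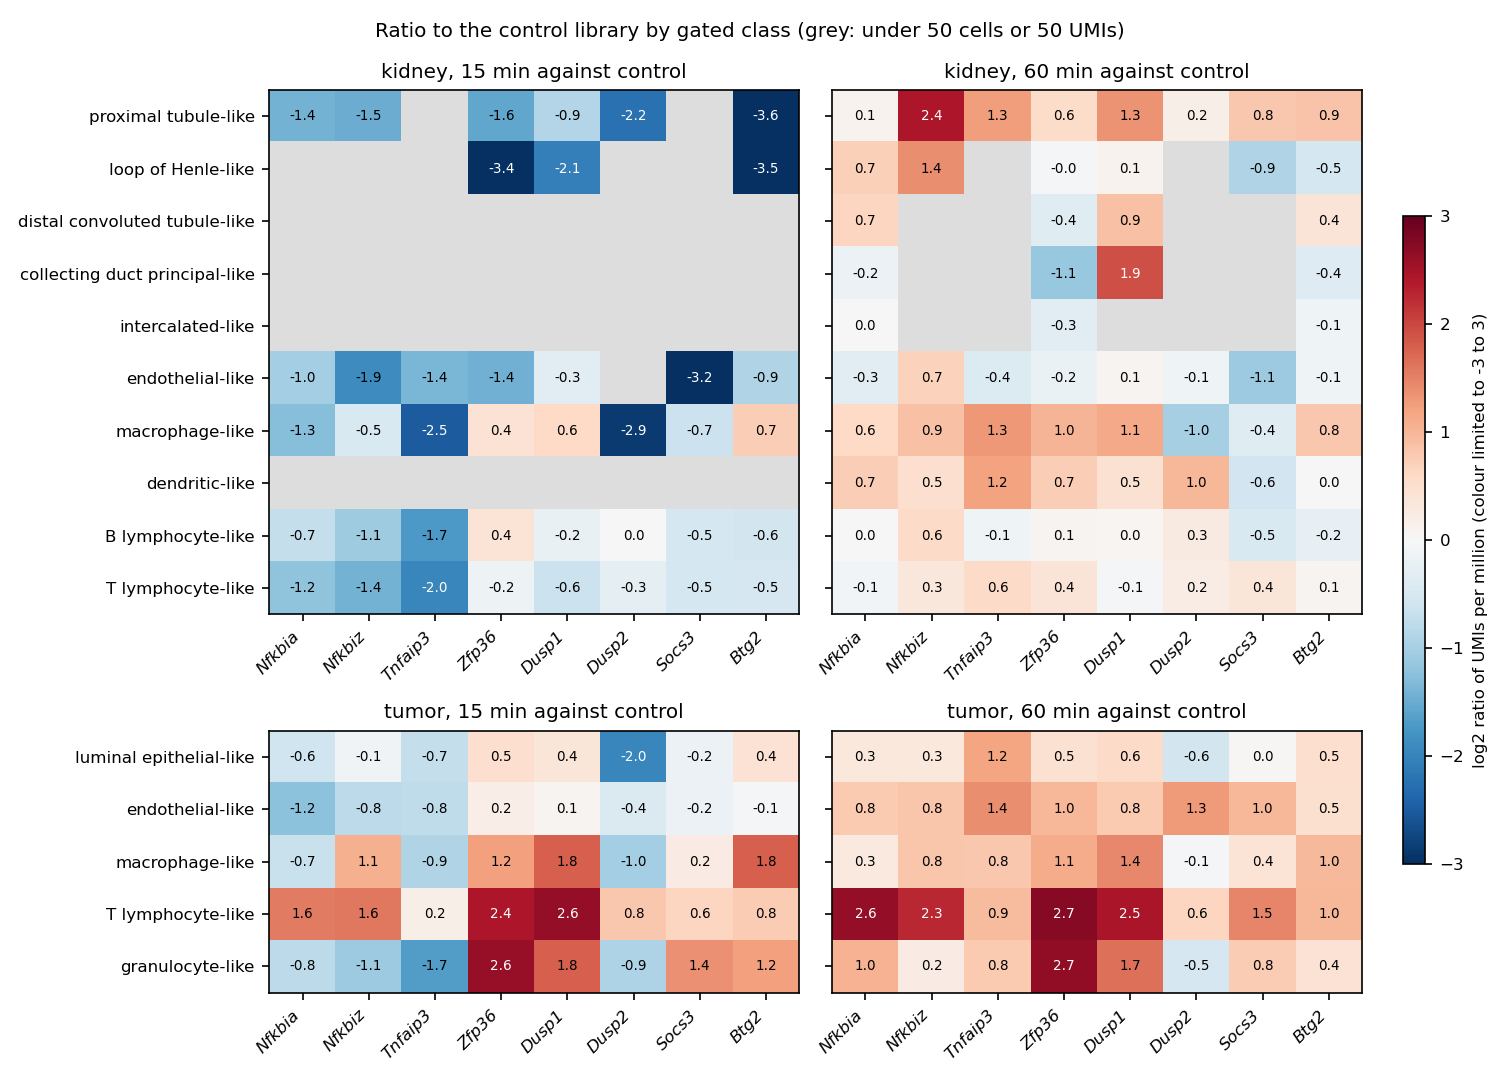
Log2 ratio of each platform interval to the control for each of the 8 genes (columns) in each class with at least 50 cells in both libraries (rows), for kidney and tumor. Color runs from lower than the control to higher, and gray marks classes with fewer than 50 cells in either library and genes with fewer than 50 UMIs over both. At 15 min the kidney panel holds 21 ratios called lower and 0 higher, and the tumor panel 12 called higher and 5 lower.

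Macrophage-like cells of the kidney showed the split within a single class. They numbered 782, 123 and 1398 in the control, 15 min and 60 min libraries, of which 13, 4 and 37 lay near the gate's limit. Tnfaip3 stood at 157, 27.9 and 384 CPM, Nfkbia at 1197, 490.4 and 1821 CPM and Nfkbiz at 513, 374 and 948 CPM. These genes of the NF-κB side were thus lowest at 15 min and highest at 60 min. Dusp2 stood at 423, 57.4 and 212 CPM and Socs3 at 276, 175 and 216 CPM, both highest in the control. Zfp36, at 1019, 1384 and 2055 CPM, Dusp1, at 1094, 1664 and 2424 CPM, and Btg2, at 1086, 1825 and 1913 CPM, were lowest in the control. At 15 min, Dusp2 at 0.136 (0.0954 to 0.188), Tnfaip3 at 0.178 (0.105 to 0.283) and Nfkbia at 0.41 (0.365 to 0.459) times the control were called lower, against 5.89% of all genes, and none was called higher, against 3.2%. The ratios of Zfp36, 1.36 (1.26 to 1.46), Dusp1, 1.52 (1.42 to 1.62), and Btg2, 1.68 (1.58 to 1.79), were above 1 and short of the fold. The median log2 ratio of the 8 was -0.56 against 0.08 over all genes. At 60 min, Tnfaip3 at 2.45 (2.27 to 2.64), Dusp1 at 2.22 (2.15 to 2.28) and Zfp36 at 2.02 (1.96 to 2.08) times were called higher, against 2.84% of all genes, and the others lay between 0.502 for Dusp2 and 1.85 for Nfkbiz. The Zfp36 call ended at 1.92 times after thinning. Summed proximal tubule markers within the gate stood at 162, 514 and 224 CPM, with the 15 min library highest, and the 6 macrophage markers at 15185, 18083 and 13397 CPM. The part of this tubule RNA in the differences was not tested.

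Macrophage-like cells of the tumor, 876, 904 and 1373 in number with 34, 11 and 16 near the gate's limit, had Nfkbia, Tnfaip3 and Dusp2 lowest at 15 min, as in kidney, while Nfkbiz and Socs3, lowest at 15 min in kidney, were above the control here. Nfkbia stood at 1702, 1078 and 2079 CPM, Tnfaip3 at 205, 109 and 359 CPM and Dusp2 at 377, 186 and 363 CPM, lowest at 15 min. Dusp1, at 517, 1796 and 1404 CPM, Btg2, at 645, 2220.2 and 1274 CPM, Zfp36, at 641, 1491 and 1388 CPM, and Nfkbiz, at 329, 684 and 580.3 CPM, were lowest in the control and highest at 15 min. Socs3 stood at 568, 669.9 and 755 CPM, highest at 60 min. At 15 min, Dusp1 at 3.47 (3.37 to 3.59), Btg2 at 3.44 (3.35 to 3.54), Zfp36 at 2.33 (2.26 to 2.4) and Nfkbiz at 2.08 (2 to 2.17) times the control were called higher, against 8.58% of all genes, and Dusp2 at 0.494 (0.466 to 0.524) was called lower, against 4.32%. The median log2 ratio over all genes was itself 0.25 here, and relative to it Nfkbiz and Zfp36 came to 1.75 and 1.96 times, short of the fold. Dusp2 came to 0.533 times, short of the fold, when the upper limits on cells were lifted. Nfkbia at 0.634 (0.618 to 0.65) and Tnfaip3 at 0.532 (0.493 to 0.575) times were below the control and short of the fold. At 60 min only Dusp1, at 2.72 (2.64 to 2.8), and Zfp36, at 2.17 (2.11 to 2.23), of the 8 were called higher, against 3.57% of all genes, and the Zfp36 call ended at 1.95 times after thinning. Luminal markers within the gate summed to 137, 98.5 and 76.4 CPM and granulocyte markers to 108, 34.1 and 37.2 CPM, and their part in the differences was not tested.

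Granulocyte-like cells of the tumor, short-lived phagocytes that respond strongly to inflammatory cytokines, had the highest Nfkbia level of the classes compared in each tumor library. There were 233, 95 and 60 such cells, with 15, 11 and 5 near the gate's limit and median depths of 2001, 1805 and 2016 UMIs. Nfkbia stood at 6576, 3796 and 13515 CPM and Tnfaip3 at 483, 152 and 834 CPM, again lowest at 15 min, as was Nfkbiz at 922, 434 and 1091 CPM and Dusp2 at 568, 299.8 and 402 CPM. Zfp36, at 419, 2546 and 2660.5 CPM, was several times higher in both platform libraries than in the control. Dusp1 stood at 876, 3017 and 2774 CPM, Socs3 at 578, 1499 and 985 CPM and Btg2 at 1419, 3326 and 1925 CPM, each lowest in the control. At 15 min, Zfp36 at 6.08 (5.2 to 7.12), Dusp1 at 3.44 (3.06 to 3.88), Socs3 at 2.6 (2.22 to 3.04) and Btg2 at 2.34 (2.11 to 2.6) times the control were called higher, against 6.35% of all genes. Tnfaip3 at 0.315 (0.213 to 0.454) and Nfkbiz at 0.47 (0.373 to 0.587) times were called lower, against 12.6%, and Nfkbia at 0.577 (0.535 to 0.623) times was short of the fold. With the upper limits on cells lifted, Nfkbiz came to 0.551 times and was not called. At 60 min, Zfp36 at 6.35 (5.36 to 7.53), Dusp1 at 3.17 (2.76 to 3.63) and Nfkbia at 2.06 (1.94 to 2.18) times were called higher, against 2.75% of all genes. The Nfkbia call ended at 1.83 times when each cell was thinned to 1000 UMIs.

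**Figure D4:**
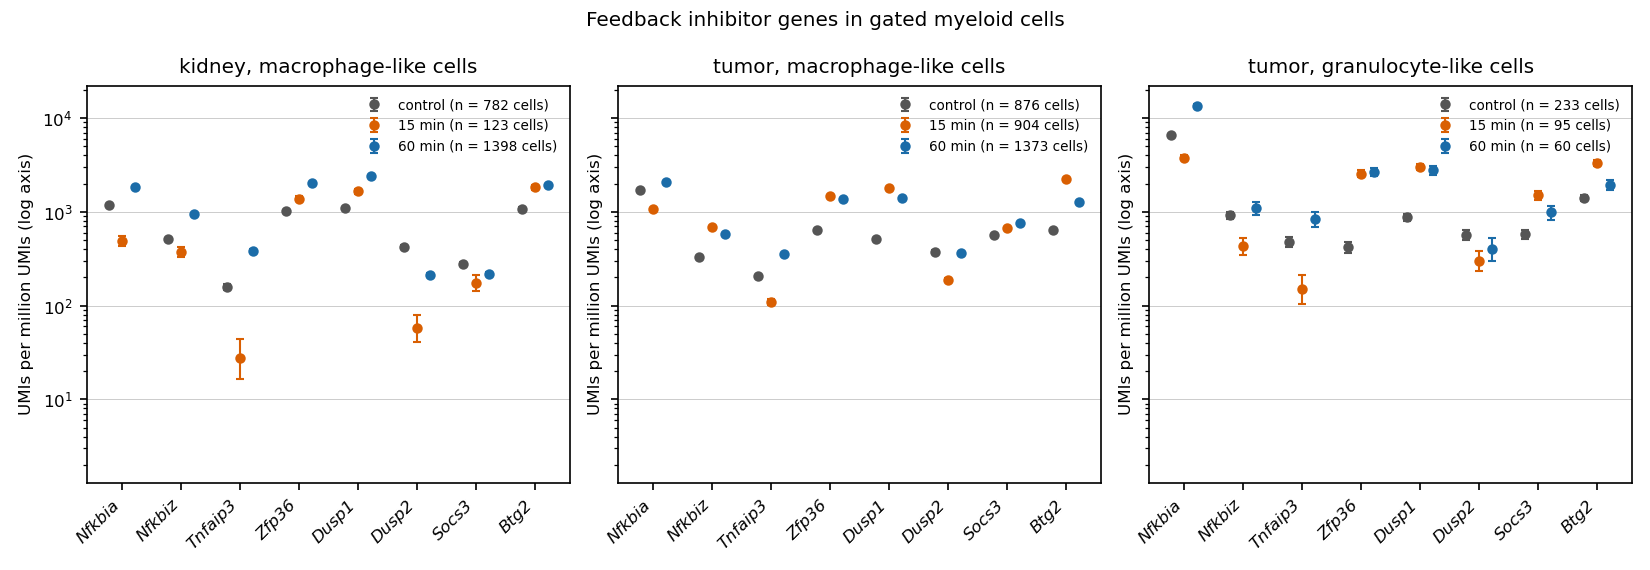
Level of each of the 8 genes, in CPM on a log axis, in kidney macrophage-like, tumor macrophage-like and tumor granulocyte-like cells of the control, 15 min and 60 min libraries. Points are single libraries, and vertical lines are exact Poisson intervals. In all 3 classes Nfkbia and Tnfaip3 are lowest at 15 min, and Zfp36, Dusp1 and Btg2 are lowest in the control.

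Nfkbia and Dusp1 went opposite ways from the control to 15 min in the macrophage- and granulocyte-like classes. This was put in a single value as the number of Nfkbia UMIs per Dusp1 UMI, a pair chosen after the values were seen. The ratio is read between libraries, not as a comparison of the 2 genes' levels. In kidney macrophage-like cells it was 1.09 (1.06 to 1.13), 0.295 (0.259 to 0.334) and 0.752 (0.736 to 0.767) in the control, 15 min and 60 min libraries, and in tumor macrophage-like cells 3.29 (3.19 to 3.4), 0.6 (0.585 to 0.616) and 1.48 (1.46 to 1.51). In tumor granulocyte-like cells it was 7.5 (6.82 to 8.27), 1.26 (1.13 to 1.4) and 4.87 (4.35 to 5.47), and in tumor endothelial-like cells 1.84 (1.69 to 2), 0.738 (0.67 to 0.812) and 1.84 (1.78 to 1.9). The 15 min value was the lowest of the 3 in each of these classes. In tumor luminal-like cells it was 2.22 (2.15 to 2.29), 1.15 (1.12 to 1.18) and 1.83 (1.78 to 1.89), and in tumor T lymphocyte-like cells 2.79 (2.27 to 3.45), 1.32 (1.17 to 1.5) and 3.14 (2.85 to 3.45), in which both genes were higher at 15 min than in the control and Dusp1 by more. Kidney endothelial-like cells had 0.981 (0.926 to 1.04), 0.61 (0.554 to 0.671) and 0.729 (0.708 to 0.751). In these cells both genes were lower at 15 min than in the control, Nfkbia by more. The same held in the kidney proximal tubule-like and B and T lymphocyte-like classes, so the lower ratios there do not reflect a higher Dusp1 level. Proximal tubule-like cells were an exception, with 0.844 (0.763 to 0.934), 0.575 (0.526 to 0.629) and 0.357 (0.328 to 0.388) and the lowest value at 60 min, and so were loop of Henle-like cells, with 0.531 (0.317 to 0.871), 1.6 (0.683 to 3.94) and 0.808 (0.657 to 0.992) from few UMIs and the lowest value in the control. Kidney B and T lymphocyte-like cells had 2.57 (2.15 to 3.08), 1.85 (1.47 to 2.33) and 2.5 (2.21 to 2.84) and 1.35 (1.16 to 1.58), 0.918 (0.704 to 1.2) and 1.34 (1.21 to 1.48), with the 15 min value lowest and its interval overlapping that of the control.

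**Figure D5:**
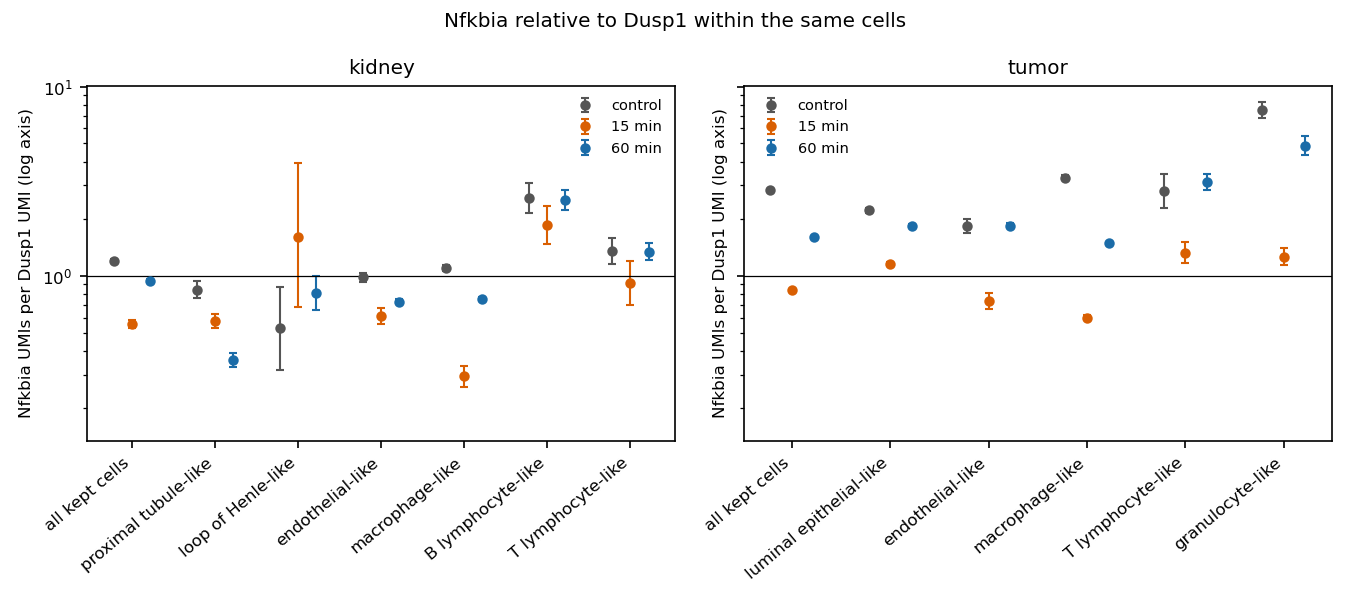
Nfkbia UMIs per Dusp1 UMI on a log axis in each class of kidney and tumor, for the control, 15 min and 60 min libraries. Points are single libraries and lines are exact binomial intervals of counting error. The 15 min point is the lowest of the 3 in every class drawn except the proximal tubule-like class, where the 60 min point is lowest at 0.357, and the loop of Henle-like class, where the control is lowest at 0.531.

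In kidney endothelial-like cells (551, 357 and 2306 cells) all 8 genes were lowest at 15 min. Socs3, the inhibitor of interleukin-6 family signaling, stood at 756, 83.3 and 355 CPM, Btg2 at 1295, 689 and 1185 CPM and Zfp36 at 752, 277 and 652 CPM. The control was the highest library for these. Nfkbia stood at 1039.8, 515 and 823 CPM, Dusp1 at 1060.0, 845 and 1129 CPM, Nfkbiz at 89.3, 24.3 and 144 CPM and Tnfaip3 at 34.3, 13.3 and 25.7 CPM. At 15 min 5 of the 8 genes were called lower, against 2.53% of all genes, with Socs3 at 0.11 (0.0903 to 0.133), Nfkbiz at 0.272 (0.183 to 0.395), Zfp36 at 0.369 (0.329 to 0.412), Tnfaip3 at 0.387 (0.218 to 0.652) and Nfkbia at 0.496 (0.455 to 0.54) times the control. The Nfkbia call ended at 0.527 times as a mean over cells, and the Tnfaip3 call at 0.526 times after thinning. The median log2 ratio of the genes tested was -1.37 against 0.13 over all genes. At 60 min Socs3 remained at 0.469 (0.443 to 0.498) times the control and was called lower, against 0.552% of all genes, and none was called higher, against 1.79%.

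In tumor endothelial-like cells (319, 256 and 788 cells, median depths 4542, 7617 and 8186 UMIs) Nfkbia stood at 898, 382 and 1547 CPM and Tnfaip3 at 29, 17 and 75.7 CPM, lowest at 15 min and highest at 60 min. Nfkbia at 0.426 (0.39 to 0.465) times the control was the 1 gene called lower at 15 min, against 1.56% of all genes, and this call ended at 0.533 times as a mean over cells. Zfp36 at 428, 494 and 858 CPM, Dusp1 at 489, 518 and 842 CPM and Socs3 at 531, 468 and 1059.7 CPM were highest at 60 min. At 60 min, Tnfaip3 at 2.61 (1.95 to 3.57), Dusp2 at 2.42 (2.19 to 2.67) and Zfp36 at 2.01 (1.86 to 2.17) times the control were called higher, against 1.12% of all genes, and the Zfp36 call ended at 1.76 times after thinning and the Dusp2 call at 1.97 times with a stricter mitochondrial limit. Dusp2, a gene better known in leukocytes, was well above background in this class. It stood at 249, 183 and 602 CPM, and 39.8%, 43% and 66.8% of cells held at least 1 UMI of it in the control, 15 min and 60 min libraries. After thinning each cell to 1000 UMIs the shares were 17.6%, 14.5% and 30.5%, while in luminal-like cells of the same libraries they were 0.27%, 0.0528% and 0.382%, and in kidney endothelial-like cells 1.13%, 0% and 0.971%, where the 0 of 352 cells at 15 min had an exact upper bound of 1.04% and the class held 3 Dusp2 UMIs before thinning. T lymphocyte markers within the tumor endothelial-like gate summed to 12.2, 2.06 and 6.07 CPM and macrophage markers to 48.7, 43.7 and 44.1 CPM.

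In T lymphocyte-like cells the 15 min ratios of Nfkbia and Nfkbiz lay on opposite sides of the control in the 2 tissues, a difference that was not tested. In the tumor (198, 137 and 242 cells, median depths 7983, 5823 and 4478 UMIs, 23, 16 and 23 near the gate's limit), Nfkbia stood at 218, 644 and 1347 CPM, Nfkbiz at 39.4, 118 and 188 CPM and Dusp1 at 78.1, 487 and 429.7 CPM. Zfp36 stood at 24.4, 132 and 161 CPM and Tnfaip3 at 182, 205 and 349.7 CPM. The control was lowest for all 8 genes. At 15 min, Dusp1 at 6.23 (5.1 to 7.66), Zfp36 at 5.4 (3.74 to 7.95), Nfkbiz at 2.99 (2.17 to 4.14) and Nfkbia at 2.95 (2.58 to 3.38) times the control were called higher, against 3.85% of all genes, with a median log2 ratio of 1.18 against 0.09. At 60 min 6 were called higher, against 5.36%, namely Zfp36 at 6.59 times, Nfkbia at 6.18, Dusp1 at 5.5, Nfkbiz at 4.76, Socs3 at 2.78 and Btg2 at 2. The Socs3 call ended at 1.44 times after thinning, and the Btg2 ratio stood at the limit of the fold. Macrophage markers within this gate summed to 30.6, 26.7 and 57.5 CPM and granulocyte markers to 35, 28.9 and 5.23 CPM, and their part in the differences was not tested.

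In the kidney (172, 113 and 436 T lymphocyte-like cells), Tnfaip3 stood at 249, 63.7 and 373 CPM, Nfkbia at 421, 183 and 397 CPM and Nfkbiz at 61.4, 22.9 and 77.2 CPM. At 15 min all of these were called lower, at 0.256 (0.178 to 0.361), 0.435 (0.349 to 0.538) and 0.373 (0.192 to 0.678) times the control, against 4.11% of all genes. The Nfkbia call ended at 0.544 times after thinning. Dusp2, at 421, 342 and 491 CPM, and Btg2, at 871, 613 and 925 CPM, stayed within the fold, and at 60 min 0 of the 8 were called, where 1.69% of all genes were called higher and 0.605% lower. Kidney B lymphocyte-like cells (293, 224 and 581 cells) held Dusp2 at 579, 583 and 693 CPM and Zfp36 at 253, 333 and 268 CPM with little difference between libraries. In them Tnfaip3, at 42.7, 12.9 and 39.3 CPM and 0.302 (0.141 to 0.592) times the control at 15 min, and Nfkbiz, at 39, 18.8 and 57.7 CPM and 0.481 (0.252 to 0.874) times, were called lower, against 2.63% of all genes. Tnfaip3 was thus called lower at 15 min in the kidney macrophage-, T lymphocyte- and B lymphocyte-like classes, and in the endothelial-like class except after thinning. The Nfkbiz call in B lymphocyte-like cells ended at 0.559 times with each cell in its highest-scoring class.

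The epithelium of the 2 tissues held these transcripts at very different levels. In proximal tubule-like cells (3083, 7204 and 2942 cells) Nfkbia stood at 37.1, 13.8 and 40 CPM, Dusp1 at 44, 24 and 112 CPM and Btg2 at 19.1, 1.53 and 34.6 CPM. Nfkbiz, at 3.42, 1.21 and 18.3 CPM, Tnfaip3, at 1.45, 0.321 and 3.47 CPM, and Socs3, at 1.35, 0.214 and 2.37 CPM, were close to absent. At 15 min 5 of the 6 genes with enough UMIs were called lower, against 1.21% of all genes, led by Btg2 at 0.0801 (0.0626 to 0.102) times the control. The median log2 ratio of the tested genes was -1.53 against -0.21 over all genes. At 60 min, Nfkbiz at 5.35 (4.1 to 7.07), Dusp1 at 2.55 (2.35 to 2.76) and Tnfaip3 at 2.39 (1.51 to 3.86) times were called higher, against 4.62%. Macrophage markers in this gate summed to 15.6, 4.31 and 30.7 CPM, with the libraries in the same order as for all 8 genes, and their part in these low levels was not tested. Lifting the upper limits on cells, which admits cells with more genes or more mitochondrial UMIs, moved the 15 min ratios to 0.683 for Nfkbiz, 0.634 for Zfp36 and 0.92 for Dusp2, ending those calls, while Btg2 stayed lower at 0.229, and moved the 60 min ratio of Dusp1 to 1.42. In loop of Henle-like cells (112, 67 and 361 cells) Btg2 stood at 479, 42.4 and 330.4 CPM, lowest at 15 min also in this segment. Btg2 at 0.0885 (0.0474 to 0.152), Zfp36 at 0.0959 (0.0251 to 0.262) and Dusp1 at 0.24 (0.108 to 0.479) times the control were called lower there at 15 min, against 5.28% of all genes. After thinning no Zfp36 UMI was left at 15 min. A missing count was set to a floor of 3 UMIs, so the thinned Zfp36 ratio was at most 0.905, a bound that cannot decide the call. The Dusp1 call ended at 0.610 times as a mean over cells. The median mitochondrial share of this class was 20.9%, 37.0% and 30.6% in the control, 15 min and 60 min libraries, and its part in the ratios was not tested.

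Tumor luminal-like cells (3409, 3807 and 2386 cells) carried Btg2 at 864, 1162 and 1217 CPM, Zfp36 at 453, 641 and 625 CPM and Nfkbia at 458, 305 and 567 CPM, well above the tubule levels of the same genes. Dusp1 stood at 206, 265 and 309 CPM, Socs3 at 149, 132 and 154 CPM and Nfkbiz at 94.9, 87.8 and 119 CPM, and varied by less than the fold. Only Dusp2, at 4.35, 1.12 and 2.96 CPM, was called lower at 15 min, at 0.258 (0.179 to 0.366) times the control against 2.55% of all genes, and only Tnfaip3, at 11.5, 6.99 and 26.4 CPM, was called higher at 60 min, at 2.29 (2 to 2.61) times against 1.06%. Both genes were low in this class. Smaller classes lacked 1 or more of the libraries. In kidney dendritic-like cells, present in number only in the control and 60 min libraries, Nfkbia was at 1701 and 2843 CPM and Tnfaip3 at 145 and 336 CPM, and Dusp2 at 436 and 873 CPM. The Tnfaip3 ratio of 2.32 (1.89 to 2.87) and the Dusp2 ratio of 2 (1.78 to 2.26) were called higher, against 3.48% of all genes, and the Dusp2 call ended at 1.54 times after thinning. In tumor fibroblast-like cells Zfp36 stood at 449.9 and 1142 CPM at 15 and 60 min and Btg2 at 396 and 1027 CPM, and the 58 stromal-like cells of the kidney at 60 min had Btg2 at 2275 (2114 to 2445) CPM.

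The platform intervals were also compared with each other, class by class, since both come from the same device. Tnfaip3, the gene of the ubiquitin-editing enzyme A20, was called higher at 60 than at 15 min in 9 of the 11 classes in which it was tested, and stood at 1.94 times in kidney endothelial-like and 1.7 in tumor T lymphocyte-like cells. In kidney it was at 13.7 (8.69 to 23.2) times in macrophage-like cells, 10.8 (6.35 to 19.4) in proximal tubule-like, 5.85 (4.24 to 8.28) in T lymphocyte-like and 3.05 (1.62 to 6.34) in B lymphocyte-like cells. In tumor it was at 6.55 (1.75 to 55.2) times in fibroblast-like cells, 5.48 (3.68 to 8.35) in granulocyte-like, 4.46 (3.13 to 6.55) in endothelial-like, 3.77 (3.26 to 4.37) in luminal-like and 3.28 (3.06 to 3.52) in macrophage-like cells. Btg2 was called higher in 3 of the 12 classes, namely the proximal tubule-like, loop of Henle-like and fibroblast-like classes, and the calls of the latter 2 ended at 1.53 and 1.9 times with cells above the upper limits let in. In kidney macrophage-like cells 4 of the 8 genes were called higher (Tnfaip3, Nfkbia, Dusp2 and Nfkbiz), against 8.85% of all genes, and in tumor macrophage-like cells Tnfaip3 was the 1 gene called, against 2.93%. In granulocyte-like cells 3 were called (Tnfaip3, Nfkbia and Nfkbiz), against 10.7%. The genes on the NF-κB side made up 7 of the 8 calls in these 3 myeloid classes. They did not all rise, since Nfkbiz went from 684 to 580.3 CPM in tumor macrophage-like cells. Zfp36 and Dusp1 rose in kidney macrophage-like cells, short of the fold. Endothelial-like cells had 4 called in kidney, against 3.61%, and 5 in tumor, against 2.39%, with Nfkbiz, Dusp2 and Socs3 in both. The kidney Dusp2 call rests on 3 UMIs at 15 min, and none was left after thinning. A missing count was set to a floor of 3 UMIs, so the thinned ratio was at least 1.5, a bound that cannot decide the call. The tumor Socs3 call ended at 1.91 times with cells above the upper limits let in. In proximal tubule-like cells all 8 were called, against 6.72%, and in loop of Henle-like cells 6, against 6.63%. With cells above the upper limits let in, the Nfkbia, Zfp36, Dusp1 and Btg2 calls of these 6 ended at 1.89, 1.44, 1.24 and 1.53 times. The Nfkbiz and Socs3 calls rest on 2 and 0 UMIs at 15 min, the latter set to the floor of 3. After thinning neither gene had a UMI left at 15 min, and their ratios were at least 0.879 and 1.07. These bounds cannot decide whether the calls hold. Lymphocyte-like classes had 3 called in kidney T (background 7.19%), 2 in kidney B (background 4.13%) and 1, Nfkbia, in tumor T lymphocyte-like cells (background 4.53%), which ended at 1.62 times after thinning. Luminal-like cells had 2 called, against 1.86%, of which Dusp2 ended at 1.96 times as a mean over cells, and fibroblast-like cells had 4, against 5.92%, of which Zfp36 ended at 1.74 times with cells above the upper limits let in. The Tnfaip3 ratio of the fibroblast-like cells rests on few UMIs. After thinning no Tnfaip3 UMI was left in them at 15 min, and with the floor of 3 UMIs the ratio was at least 0.650, which cannot decide the call.

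The rest of the pathway was read from lists chosen with earlier results of these data known, so their counts are descriptions. In kidney macrophage-like cells at 15 min, 3 of the 5 NF-κB subunit genes were called lower and 0 higher, with a median log2 ratio of -1.36, where 5.89% of all genes were called lower and 3.2% higher with a median of 0.08. Rel, a subunit gene used mainly by blood-derived cells, stood at 407 and 102 CPM in the control and 15 min libraries (0.252 times). Of 11 tested NF-κB target genes 6 were called lower and 0 higher (median -1.66), led by the neutrophil chemokine genes Cxcl1, at 185 and 1.55 CPM, and Cxcl2, at 3979 and 172 CPM. The Cxcl1 level at 15 min rests on very few UMIs in 123 cells. Of the 11 tested receptors, adaptors and kinases upstream of NF-κB, 0 were called in either direction (median 0.01). Among other NF-κB inhibitors 2 of 8 were called lower, including Tnip3 at 169.9 and 14 CPM. Among MAPK inhibitors outside the phosphatases 1 of 5 was, namely Ier3 at 331 and 32.6 CPM. Of the 8 immediate early genes, Fos was called higher at 1725 and 4041 CPM and the nuclear receptor gene Nr4a1 lower at 267 and 55.9 CPM. In this class the lower genes at 15 min thus included both NF-κB inhibitors and NF-κB targets.

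In tumor macrophage-like cells at 15 min, 4 of 5 subunit genes were called lower (median -1.58), led by Nfkb1 at 400.0 and 69.5 CPM in the control and 15 min libraries, and so were 3 of 5 other IκB family genes (median -1.67) and 4 of 11 targets (median -0.76), among them Cxcl1 at 1399 and 123 CPM. None of these 3 lists had a gene called higher. Over all genes of this class 4.32% were called lower and 8.58% higher, with a median of 0.25. In contrast, 6 of 8 immediate early genes were called higher and 0 lower (median 1.97), led by Egr1 at 224 and 1665 CPM, Jun at 675 and 3956 CPM and Fos at 856 and 4545 CPM. Both tested relatives of Zfp36 were called higher, Zfp36l2 at 129.5 and 365 CPM and Zfp36l1 at 158 and 324 CPM. The cytoplasmic ERK phosphatase gene Dusp6 was at 31 and 169 CPM, while Dusp5, a nuclear ERK phosphatase gene, was at 242 and 35.4 CPM, so the MAPK phosphatases did not move together. In tumor granulocyte-like cells 5 of 5 subunit genes (median -2.38) and 5 of 9 targets were called lower and 5 of 7 immediate early genes higher (median 1.54), where 12.6% of all genes were called lower and 6.35% higher with a median of 0.01. Among those targets the mitochondrial superoxide dismutase gene Sod2 was at 891 and 50.7 CPM and Icam1 at 610.4 and 92.3 CPM, and among the immediate early genes Fos was at 209.5 and 3353 CPM. At 60 min 5 of the 9 targets were called higher than the control in these cells, against 2.75% of all genes, including Cxcl2 at 10225 and 35216 CPM.

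In kidney endothelial-like cells at 15 min the immediate early genes went the other way, with 6 of 8 called lower and 0 higher (median -1.62), against 2.53% of all genes called lower, including the stress factor gene Atf3 at 1319 and 80.4 CPM, and 4 of 6 tested targets were called lower, including the adhesion molecule genes Icam1 at 745 and 189.5 CPM and Vcam1 at 277 and 102 CPM. In tumor endothelial-like cells at 60 min 6 of 11 targets were called higher (median 1.02), against 1.12% of all genes, including Il6 at 15.1 and 102 CPM and Vcam1 at 14.5 and 75.7 CPM in the control and 60 min libraries. In tumor T lymphocyte-like cells at 60 min 7 of 9 targets (median 2.05) and 6 of 8 immediate early genes (median 2.25) were called higher, against 5.36% of all genes.

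The 8 transcripts were also counted together in single cells after thinning each to 1000 UMIs, with shallower cells left out. In kidney macrophage-like cells 41.4% (37.9 to 44.9), 30.5% (22.4 to 39.7) and 57% (54.4 to 59.6) of cells in the control, 15 min and 60 min libraries held UMIs of at least 4 of the 8 genes. In tumor macrophage-like cells the shares were 35.4% (32.2 to 38.7), 58.5% (55.2 to 61.7) and 58.7% (56 to 61.3), with overlapping intervals of the platform libraries and both above the control. Tumor granulocyte-like cells had 64% (57.3 to 70.3), 79.6% (69.9 to 87.2) and 91.4% (81 to 97.1), and tumor endothelial-like cells 21.1% (16.7 to 26), 16% (11.7 to 21.1) and 41.1% (37.6 to 44.6). Kidney endothelial-like cells had 24.6% (21 to 28.5), 4.83% (2.84 to 7.62) and 19.5% (17.8 to 21.2), lowest at 15 min, and tumor T lymphocyte-like cells 2.11% (0.577 to 5.3), 17% (11.1 to 24.5) and 19.5% (14.6 to 25.1), lowest in the control. Proximal tubule-like cells, in which these genes were sparse, had 0.0341% (0.000863 to 0.19), 0.014% (0.000355 to 0.0781) and 0.181% (0.0589 to 0.423), with median depths before thinning of 5577, 7196 and 6062 UMIs against 6856, 5224 and 6108 in the macrophage-like cells. Luminal-like cells had 5.43% (4.68 to 6.25), 6.61% (5.83 to 7.44) and 9.56% (8.4 to 10.8).

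The genes whose levels were most like each of the 8 were ranked by Pearson's r over 48 profiles (class and library) and 11559 genes, as a description without a test, since profiles of a library share their depth and cells of origin. For Nfkbia they were Csrnp1 (r = 0.936), Mcl1 (0.918) and Sde2 (0.905), for Nfkbiz Nfkbia (r = 0.894), Gm17056 (0.884) and Dusp1 (0.878) and for Tnfaip3 Pim1 (r = 0.908), Rab8b (0.885) and Nr4a3 (0.878). For Zfp36 they were Marcks (r = 0.871), Ier2 (0.87) and Egr1 (0.865), and for Btg2 Junb (r = 0.928), Ier2 (0.916) and Cic (0.877), with the immediate early gene Ier2 near both. For Dusp1 they were Oasl2 (r = 0.889), 1700019L13Rik (0.883) and Nfkbiz (0.878), for Dusp2 St8sia4 (r = 0.936), Hcls1 (0.928) and Nfkbid (0.922) and for Socs3 Isg15 (r = 0.865), Dusp1 (0.864) and Myd88 (0.863). Between the 8 themselves r ran from 0.40 for Dusp2 and Zfp36 to 0.89 for Nfkbia and Nfkbiz.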

How the data were processed

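Per the labels and the study's methods, the authors sequenced 6 droplet libraries, counted UMIs on mm10 with Cell Ranger 3.1.0 and aggregated the libraries of each tissue, a step that equalizes read depth. The deposited values are raw UMI counts per gene and cell, 34034 cells for kidney and 24527 for tumor. Cells with 200 to 3000 genes (kidney) or 4000 (tumor) and at most 50% (kidney) or 25% (tumor) mitochondrial UMIs were kept, and no doublet caller was run. For each class, marker UMIs per 10000 were divided by the median of cells with at least 3 of its markers. A cell joined the top class with at least 2 markers, a score of at least 0.2 and the next score at most 0.5 of it. These limits were set after marker totals were seen. The names rest on these gates, so shares may differ from any annotation by the authors. Counts were summed per class and library with Python 3.11.15, numpy 2.4.6, scipy 1.17.1 and pandas 2.3.3, and the counting was tested on simulated data. The genes and the 13 pathway lists were chosen with earlier results of these data known. All 8 genes are named. Up to 4 genes of a list past the fold could be named, by size, among those with at least 100 UMIs. The 3 most similar genes needed at least 1000 UMIs in all. Alternatives comprised other filters, scalings, thresholds, thinning and gates. Leaving out cells with barcodes shared between libraries was added after seeing the data.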

Additional observations from a re-analysis of the deposited data

Results flagged for a closer look

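A pair of ratios had opposite signs between the tissues in T lymphocyte-like cells at 15 min, in the single libraries of each tissue. The Nfkbia level was at 0.435 times the control in kidney and at 2.95 times in tumor. The Nfkbiz level was at 0.373 times the control in kidney and at 2.99 times in tumor. The difference between the tissues was not tested, since each condition has 1 library.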

How the results depend on the processing

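The 24 counts of genes past the fold gave 240 values under the alternatives, of which 218 stayed within 1.5 times the main count. Counts of 0 that stayed at 0 are among these. Of 108 called ratios in gated classes, 108 stayed past the fold in the same direction under a stricter gate, 107 without shared barcodes, 106 without mitochondrial UMIs, 105 with median-ratio scaling, 102 with a stricter mitochondrial limit, 101 with each cell in its highest-scoring class, 95 as a mean over cells, 91 without upper limits on cells and 91 after thinning. The kidney whole-library count higher at 60 min than in the control went from 4 to 2 without upper limits, 1 with median-ratio scaling and 2 after thinning. The tumor whole-library count for that contrast went from 2 to 1 with the stricter mitochondrial limit, 1 after thinning and 1 as a mean over cells. The tumor whole-library count lower at 15 min went from 2 to 0 after thinning and 1 as a mean over cells. In gated kidney classes the count lower at 60 min went from 2 to 9 without upper limits and to 4 with a minimum of 10 UMIs. In gated tumor classes a count of 0 became 1 for lower at 60 min than at 15 min after thinning, and 1 for lower at 60 min than in the control as a mean over cells. With a 1.5-fold rule, kidney classes went from 0 to 2 higher at 15 min, from 10 to 21 higher at 60 min and from 2 to 4 lower at 60 min. Under that rule the tumor whole library went from 0 to 3 higher at 15 min, from 2 to 6 higher at 60 min and from 3 to 5 higher at 60 against 15 min. The tumor classes went from 5 to 13 lower at 15 min, from 15 to 26 higher at 60 min, and from 16 to 25 higher and 0 to 3 lower at 60 against 15 min. After thinning, no UMI was left at 15 min for Nfkbiz in loop of Henle-like cells or for Tnfaip3 in tumor fibroblast-like cells. A missing count was set to a floor of 3 UMIs, which makes the ratio a bound. The ratios of 60 to 15 min were thus at least 0.879 (from 6.66) and at least 0.650 (from 6.55). Both bounds lie below 1, so they cannot decide whether the direction was kept. Bounds short of the fold were counted as not past it. Elsewhere the cause was not tested. No paired analysis was possible because each condition has 1 library and no test was run, and no library could be left out for the same reason. Depth limits low levels most, so genes near 50 UMIs in a class carry wide intervals.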
